A study of Mus musculus with 8 samples.

Results

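The SLC25 family, the mitochondrial carriers, was taken as every gene of the deposited count table whose symbol starts with Slc25a followed by a digit. This rule used names only, and it found 47 of the 25124 genes. Of these, 43 were among the 19146 genes with enough reads to be tested. The 4 that were not tested, Slc25a31, Slc25a41, Slc25a47 and Slc25a48, reached at most 1.36 CPM, the unit of reads set relative to the TMM-scaled library size, in any library.

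Mitochondrial carriers are small membrane proteins, most of them in the inner mitochondrial membrane, and each moves a narrow set of metabolites between the cytosol and the matrix. ADP/ATP and phosphate carriers feed ATP synthesis, carboxylate and aspartate-glutamate carriers serve citrate export and redox shuttles, and others move amino acids, cofactors, iron, glutathione or carnitine. T cells that are activated through their receptor enlarge their mitochondria and draw on these routes for growth and for nucleotide and lipid synthesis.

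RNA was sequenced from CD4 T cells of the spleen of mice carrying a green KLF2 reporter and a red FOXP3 reporter. KLF2 is a zinc-finger factor that quiescent lymphocytes keep high and that maintains their trafficking receptors, while FOXP3 marks regulatory T cells. All cells were sorted for high CD44, found on antigen-experienced T cells, for absence of FOXP3, and then by the KLF2 reporter. The 4 groups, each of 2 libraries, were KLF2+ cells with stimulus, KLF2+ cells without stimulus, KLF2- cells with stimulus and KLF2- cells without stimulus. The stimulus was anti-CD3 at 2.5 micrograms/mL with anti-CD28 at 1.25 micrograms/mL, which act on the receptor for antigen and its CD28 co-receptor. Every group was held for 48 h before RNA was taken. The labels give the KLF2 status under genotype, while the series' design describes a sort by reporter. The labels do not say that the 2 libraries of a group came from separate animals or cultures, so p-values reflect the scatter of these samples alone, and that scatter may be technical.

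The promoter windows of 6 members are shown. They belong to the 3 most abundant carriers, to the citrate carrier Slc25a1, to the aspartate-glutamate carrier Slc25a13 and to Slc25a33. The responses of Slc25a1 and Slc25a13 to stimulus were among the steadiest across ways of processing. Slc25a33 was the single member that passed the main edgeR test, given below, between unstimulated KLF2+ and KLF2- cells. Each window holds the 250 bases just upstream of the gene start in the deposited table, from RefSeq on GRCm38.p6, written 5′ to 3′ on the strand of the gene. Capitals mark 3 motifs searched on both strands, the E-box CACGTG, the ETS-type motif CCGGAAG and an NRF1-type motif of GCGCA, any base and GCGC.
Slc25a5 (chrX:36795347-36795596, plus strand): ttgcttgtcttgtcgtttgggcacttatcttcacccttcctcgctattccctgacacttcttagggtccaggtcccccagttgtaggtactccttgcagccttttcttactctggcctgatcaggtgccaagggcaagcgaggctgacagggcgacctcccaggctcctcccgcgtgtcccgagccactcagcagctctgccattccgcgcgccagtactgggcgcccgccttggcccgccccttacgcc
Slc25a3 (chr10:91123968-91124217, minus strand): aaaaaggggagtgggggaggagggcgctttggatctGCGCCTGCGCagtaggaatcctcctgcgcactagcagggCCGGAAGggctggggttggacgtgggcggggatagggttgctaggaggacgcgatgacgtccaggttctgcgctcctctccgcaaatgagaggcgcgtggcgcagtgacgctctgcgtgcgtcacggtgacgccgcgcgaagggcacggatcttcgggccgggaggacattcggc
Slc25a4 (chr8:46211063-46211312, minus strand): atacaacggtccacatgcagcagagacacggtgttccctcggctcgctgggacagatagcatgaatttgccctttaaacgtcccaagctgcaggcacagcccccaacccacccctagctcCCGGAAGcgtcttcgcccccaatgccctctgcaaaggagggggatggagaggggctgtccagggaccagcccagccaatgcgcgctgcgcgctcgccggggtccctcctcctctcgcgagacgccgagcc
Slc25a1 (chr16:17928220-17928469, minus strand): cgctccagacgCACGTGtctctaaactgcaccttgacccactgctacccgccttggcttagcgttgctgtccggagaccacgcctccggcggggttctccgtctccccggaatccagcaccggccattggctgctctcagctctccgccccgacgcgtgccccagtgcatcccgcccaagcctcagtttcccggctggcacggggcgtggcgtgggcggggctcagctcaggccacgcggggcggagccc
Slc25a13 (chr6:6217174-6217423, minus strand): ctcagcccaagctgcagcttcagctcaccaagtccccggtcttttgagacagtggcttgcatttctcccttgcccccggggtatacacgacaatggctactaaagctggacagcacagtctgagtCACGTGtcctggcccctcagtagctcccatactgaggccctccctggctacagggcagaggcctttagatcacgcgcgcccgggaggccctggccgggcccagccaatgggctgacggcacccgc
Slc25a33 (chr4:149774268-149774517, minus strand): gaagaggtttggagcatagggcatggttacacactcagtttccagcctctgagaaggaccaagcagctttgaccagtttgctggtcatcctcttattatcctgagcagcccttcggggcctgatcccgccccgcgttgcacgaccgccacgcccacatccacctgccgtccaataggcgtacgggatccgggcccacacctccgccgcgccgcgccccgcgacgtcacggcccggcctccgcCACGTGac

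The E-box stood in the windows of Slc25a1, Slc25a13 and Slc25a33, the ETS-type motif in those of Slc25a3 and Slc25a4, and the Slc25a5 window held none of the 3 motifs. Windows were at hand for 33 of the 43 tested members, 43 windows in all since some genes have several starts. The E-box was in 7 of these 43 windows, from 6 members that also included Slc25a14, Slc25a15 and Slc25a36. It was in 7.43% of all 18322 windows of tested genes. The ETS-type motif was in 6 of the 43 windows, against 10.3% of all windows, and the NRF1-type motif in 1, against 6.04%. A match describes these letters only.

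Reads over exons ranged from 2.99 M to 36.6 M per library, of 33.9 M to 45.6 M aligned tags, where M is mega. The fewest were in stimulated KLF2- replicate 4. Reads over olfactory and vomeronasal receptor genes, which T cells are not known to use, gave a background density. At that density background made up 0.401% to 1.24% of exon reads in stimulated KLF2+ libraries, 2.61% to 7.06% in unstimulated KLF2+ libraries, 11.4% to 20.1% in stimulated KLF2- libraries and 7.09% to 7.80% in unstimulated KLF2- libraries. Klf2 itself had 93.5 and 139 CPM in stimulated KLF2+ cells, against 46.5 and 75.8 CPM in stimulated KLF2- cells, and 303 and 379 CPM in unstimulated KLF2+ cells, against 41.02 and 64.96 CPM in unstimulated KLF2- cells. All 8 measured genes of a 10-gene CD4 T cell list had reads in every library. A list of 12 myeloid markers summed to 259 and 335 CPM in stimulated KLF2+ cells, 1305 and 2436 CPM in unstimulated KLF2+ cells, 228 and 238 CPM in stimulated KLF2- cells and 317 and 320 CPM in unstimulated KLF2- cells. Of the 12, C1qb was at 0 in stimulated KLF2- replicate 4 and Clec4n in unstimulated KLF2- replicate 4. In KLF2+ cells all 12 fell with stimulus, as did 2 of 10 B cell and 3 of 6 NK cell markers, while 1 NK cell marker rose. In addition, 1 of 8 CD4 and 1 of 2 CD8 T cell markers rose, and of 3 regulatory T cell markers 1 rose and 1 fell. Of all genes tested, 19.7% were higher and 17.4% lower in this comparison. Without stimulus 5 of the 12 myeloid markers had higher levels in KLF2+ cells, compared with KLF2- cells. So had 2 of 10 B cell and 1 of 6 NK cell markers, beside 1.07% of all genes tested. The part of these markers in the KLF2+ response of the carriers was not tested.

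Because these differences touch every gene, each comparison was read under 3 scalings. TMM over all genes is the main one. The others are TMM over genes of at least 50 CPM, and counts with the background subtracted before that scaling, which left 39 of the 43 members tested. Over all genes tested, the median of the log2 fold changes was -0.25, -0.75 and -0.24 under these 3 scalings for the KLF2+ response, and 0.06, 0.45 and 0.13 for the KLF2- response. It was -0.19, -1.39 and -0.47 for stimulated KLF2+ over KLF2- cells, and -0.11, -0.39 and -0.21 for unstimulated KLF2+ over KLF2- cells. A gene was called when its adjusted p in edgeR's quasi-likelihood test, over all genes tested, was under 0.05.

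Levels within the family spanned a wide range. Slc25a5, the main ADP/ATP carrier of dividing cells, was the most abundant, with a mean over the 8 libraries of 596.6 CPM per kb of exon. Slc25a3, which carries phosphate, followed with 198 CPM per kb, and Slc25a4, the ADP/ATP carrier best known from muscle and heart, with 128 CPM per kb. Next came Slc25a11, the oxoglutarate-malate carrier, with 94.5 CPM per kb, and Slc25a39, which is needed for glutathione import, with 61.2 CPM per kb. In all, 25 members averaged at least 10 CPM per kb, and 9 stayed under 5 CPM in every library. The order beyond the leading members was close: Slc25a1 and Slc25a12 averaged 35.7 and 35.2 CPM per kb, less apart than libraries of 1 group.

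**Figure D1:**
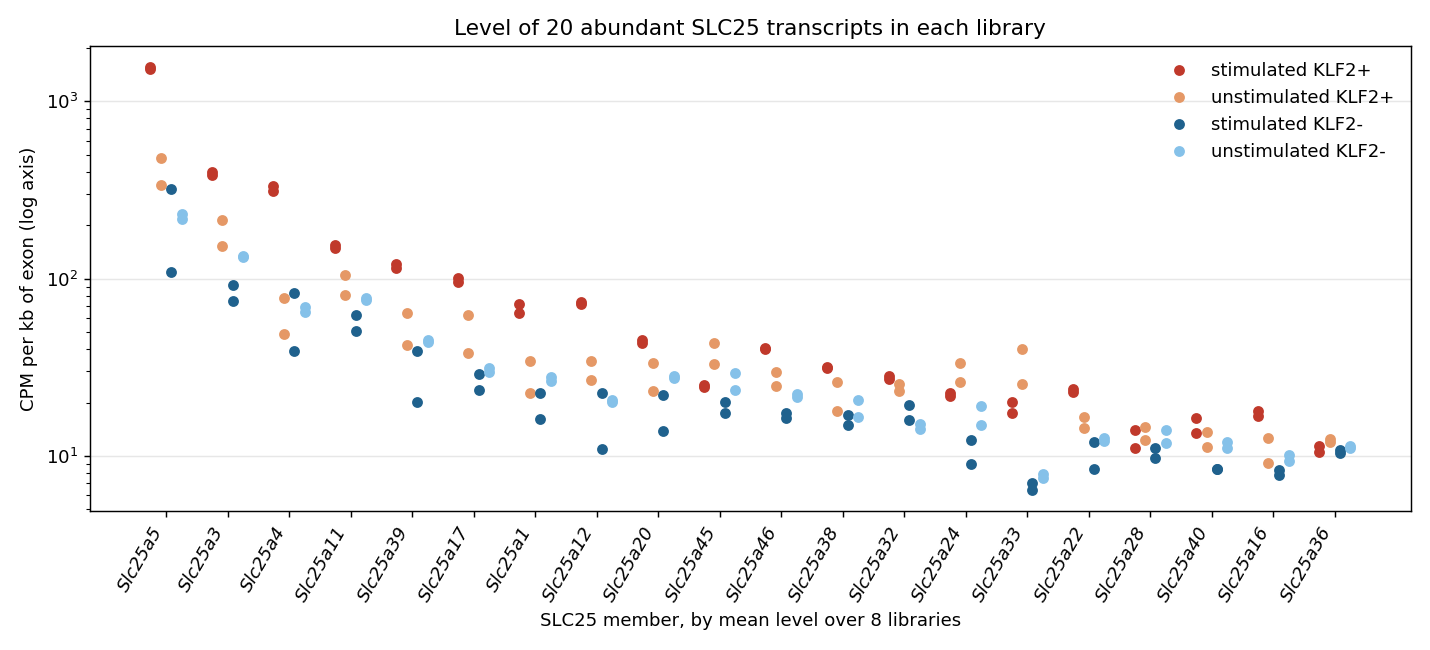
Level of 20 abundant SLC25 transcripts in CPM per kb of exon on a log axis, 1 point per library, coloured by group. The Slc25a5 points of stimulated KLF2+ cells lie at 1559 and 1521 CPM per kb, above every other value, and most other members also have their highest points in that group.

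The make-up of the family can be compared without any scaling between libraries, since each share is taken within 1 library. Background was not subtracted from these shares. It made up 0.401% to 20.1% of exon reads across libraries, and its part in the shares was not tested. Slc25a5 made up 47.3% ± 0.780 of the summed SLC25 CPM per kb in stimulated KLF2+ cells and 31.1% ± 0.838 in unstimulated KLF2+ cells (SD, n = 2 each). In KLF2- cells its share was 25.8% ± 11.2 with stimulus and 23.7% ± 1.022 without (SD, n = 2 each). The stimulated KLF2- libraries lay far apart, at 33.7% in replicate 3 and 17.9% in replicate 4. The 5 most abundant members together made up 77.5% ± 0.344 in stimulated KLF2+ cells, 61.1% ± 1.49 in unstimulated KLF2+ cells, 55.6% ± 10.3 in stimulated KLF2- cells and 57.7% ± 0.195 in unstimulated KLF2- cells (SD, n = 2 each). With 2 libraries against 2, an exact permutation test of a single share cannot go below p = 0.33, so these shares carry no test. Unlike the shares, the family's summed level depends on the scaling. With TMM over all genes it was 3258 ± 3.49 CPM per kb in stimulated and 1308 ± 290.95 in unstimulated KLF2+ cells. In KLF2- cells it was 777 ± 241.5 with stimulus and 946 ± 2.85 without (SD, n = 2 each). Without scaling, the family took 0.340% and 0.337% of exon reads in stimulated KLF2+ cells. It took 0.228% and 0.238% in unstimulated KLF2+ cells. The values were 0.237% and 0.196% in stimulated KLF2- cells, and 0.217% and 0.212% in unstimulated KLF2- cells.

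**Figure D2:**
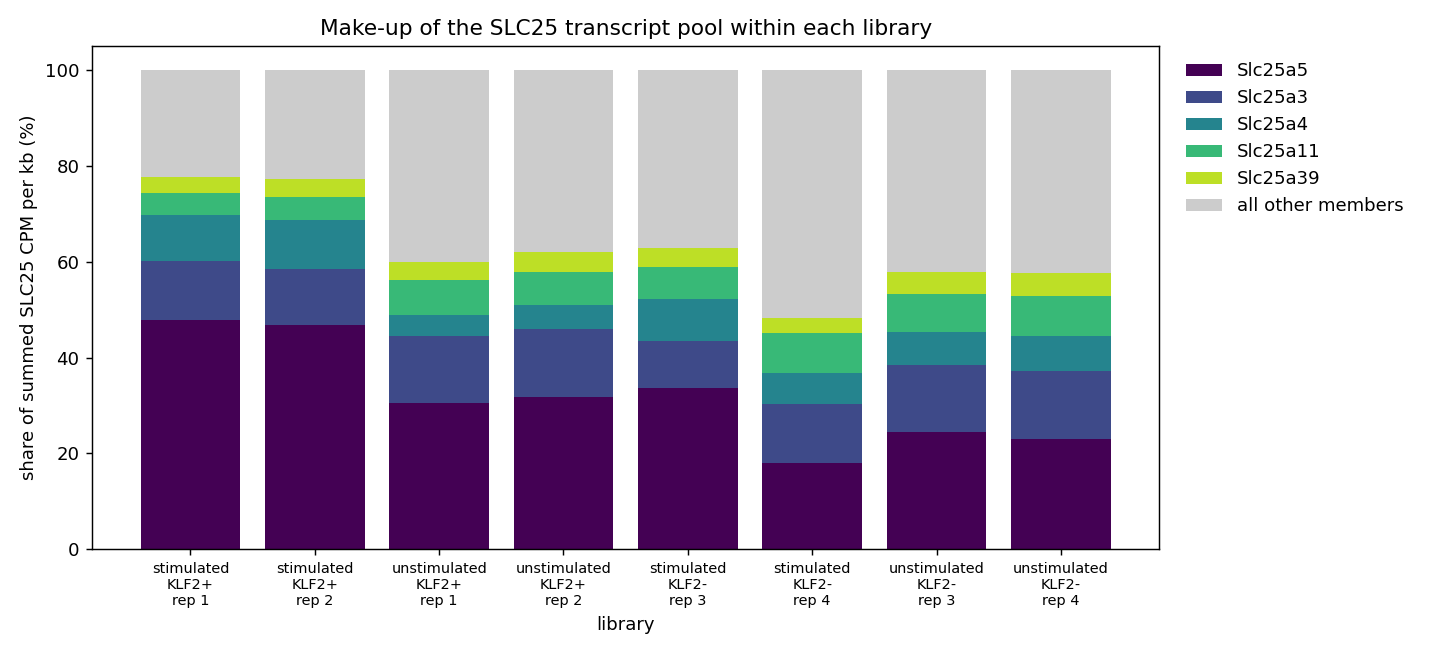
Share of each of the 5 most abundant members in the summed SLC25 CPM per kb of each library, in percent, with all other members in grey. Slc25a5 takes 47.8% and 46.7% in the stimulated KLF2+ libraries and 17.9% to 33.7% in the others.

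In KLF2+ cells the family's most abundant members rose with stimulus. Of the 43 tested members 14 were higher and 3 lower in stimulated than in unstimulated KLF2+ cells, while 37.1% of all genes tested were called, 19.7% higher and 17.4% lower. The members' share called, 17 of 43, was near that of all genes. TMM over genes of at least 50 CPM gave 9 higher and 6 lower, with 2167 genes higher and 5667 lower of 19146, and background correction 8 higher and 4 lower of 39, with 1937 genes higher and 2510 lower of 15292. The median log2 fold change of the members was 0.25, against -0.25 for all genes tested. The groups did not overlap for 23 members that were higher and 11 that were lower with stimulus, against 35.2% and 40.1% of all genes. Members higher under all 3 scalings were Slc25a1, Slc25a3, Slc25a4, Slc25a5, Slc25a10, Slc25a12, Slc25a13 and Slc25a39, and those lower were Slc25a27, Slc25a33 and Slc25a45. Leaving out a library also changed the filter, so that 46 members were tested in the next 5 fits. The 17 calls became 11 without stimulated KLF2+ replicate 1 (36.9% of all genes called), 6 without stimulated KLF2+ replicate 2 (11.9%) and 5 without unstimulated KLF2+ replicate 1 (10.4%). They became 11 without unstimulated KLF2- replicate 3 (21.1%) and 11 without unstimulated KLF2- replicate 4 (20.7%). Bulk RNA cannot tell a change in RNA per cell from a change in the number of cells of a type.

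**Figure D3:**
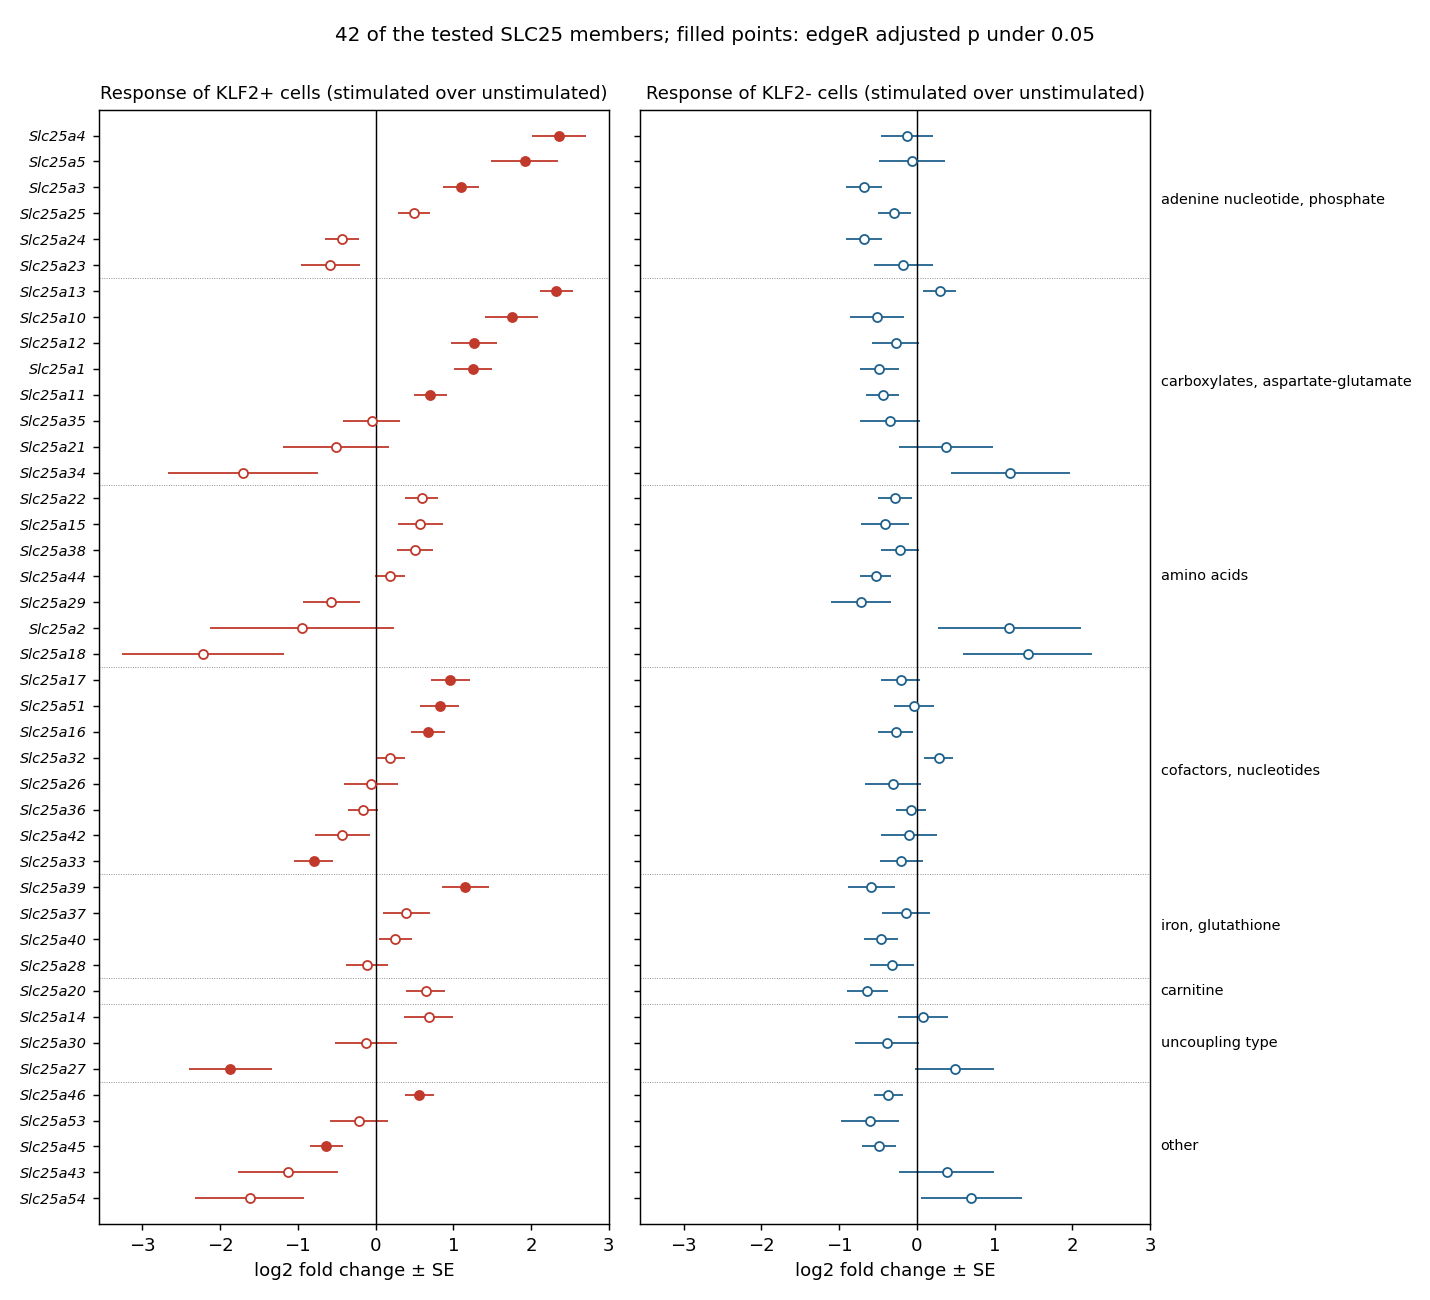
Log2 fold change of stimulated over unstimulated cells ± SE for 42 of the 43 tested SLC25 members, grouped by substrate, in KLF2+ cells on the left and KLF2- cells on the right. Filled points passed an adjusted p of 0.05 in edgeR, 16 of those drawn in KLF2+ cells and 0 in KLF2- cells.

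Adenine nucleotide and phosphate carriers supply the substrates of ATP synthase, and 3 of the 6 tested rose with stimulus in KLF2+ cells. Of all genes tested, 19.7% were called higher. Slc25a5 had 2010 and 1961 CPM in stimulated KLF2+ cells, 434 and 619 CPM in unstimulated KLF2+ cells, 412 and 140 CPM in stimulated KLF2- cells, and 298 and 279 CPM in unstimulated KLF2- cells. Both stimulated KLF2+ libraries stood far above every other library. Its log2 fold change in KLF2+ cells was 1.92 ± 0.44 (SE, edgeR adjusted p = 0.0113), and without unstimulated KLF2+ replicate 1 the adjusted p was 0.102. Slc25a4 had 416 and 441 CPM in stimulated KLF2+ cells, 64.6 and 102 CPM in unstimulated KLF2+ cells, 110 and 51.8 CPM in stimulated KLF2- cells, and 85.4 and 92.0 CPM in unstimulated KLF2- cells. Only the stimulated KLF2+ libraries stood apart, and the log2 fold change in KLF2+ cells was 2.36 ± 0.35 (SE, edgeR adjusted p = 0.00217), called in all 16 alternatives.

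Slc25a3, which brings in the phosphate for ATP synthesis, had 603 and 583 CPM in stimulated KLF2+ cells, 231 and 323 CPM in unstimulated KLF2+ cells, 140 and 113 CPM in stimulated KLF2- cells, and 201 and 203 CPM in unstimulated KLF2- cells. It rose in KLF2+ cells by 1.09 ± 0.23 on the log2 scale (SE, edgeR adjusted p = 0.00859), and in KLF2- cells both stimulated libraries lay below both unstimulated ones without passing the test. The call was lost without stimulated KLF2+ replicate 2 (adjusted p = 0.0574 in edgeR) and without unstimulated KLF2+ replicate 1 (0.0564). The calcium-regulated ATP-magnesium/phosphate carriers did not pass. Slc25a24 had 73.3 and 75.8 CPM in stimulated KLF2+ cells, 88.3 and 113 CPM in unstimulated KLF2+ cells, 30.3 and 41.4 CPM in stimulated KLF2- cells, and 50.2 and 64.3 CPM in unstimulated KLF2- cells. Slc25a25 had 45.1 and 51.7 CPM in stimulated KLF2+ cells, 37.9 and 31.01 CPM in unstimulated KLF2+ cells, 26.7 and 25.7 CPM in stimulated KLF2- cells, and 33.7 and 30.4 CPM in unstimulated KLF2- cells. Their log2 fold changes in KLF2+ cells were -0.43 for Slc25a24 and 0.49 for Slc25a25, and for Slc25a24 the other scalings gave -0.92 and -0.94, both called.

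Carriers of di- and tricarboxylates and of aspartate-glutamate move the intermediates of citrate export and of the malate-aspartate shuttle. In KLF2+ cells 5 of the 8 tested rose with stimulus, beside 19.7% of all genes tested. Under all 3 scalings Slc25a1, Slc25a10, Slc25a12 and Slc25a13 rose. Slc25a13, the aspartate-glutamate carrier known as citrin, had 77.9 and 67.9 CPM in stimulated KLF2+ cells, 15.6 and 13.5 CPM in unstimulated KLF2+ cells, 22.8 and 23.3 CPM in stimulated KLF2- cells, and 18.2 and 19.3 CPM in unstimulated KLF2- cells. Its rise in KLF2+ cells, 2.32 ± 0.21 on the log2 scale (SE, edgeR adjusted p = 0.000304), had the smallest p of the family and was called in all 16 alternatives. Slc25a12, the other aspartate-glutamate carrier, had 232 and 226 CPM in stimulated KLF2+ cells, 83.5 and 107 CPM in unstimulated KLF2+ cells, 71.1 and 34.4 CPM in stimulated KLF2- cells, and 64.8 and 62.9 CPM in unstimulated KLF2- cells. It rose by 1.26 ± 0.30 in KLF2+ cells (log2, SE, edgeR adjusted p = 0.0128), a call lost without unstimulated KLF2+ replicate 1 and on TPM values.

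Slc25a1, the citrate carrier that supplies cytosolic acetyl-CoA, had 107 and 120 CPM in stimulated KLF2+ cells, 37.7 and 57.0 CPM in unstimulated KLF2+ cells, 37.6 and 27.0 CPM in stimulated KLF2- cells, and 43.9 and 46.7 CPM in unstimulated KLF2- cells. Its log2 fold change in KLF2+ cells was 1.25 ± 0.24 (SE, edgeR adjusted p = 0.00629), called in all 16 alternatives with values of 0.58 to 1.63. Slc25a10, the dicarboxylate carrier, had 81.0 and 72.9 CPM in stimulated KLF2+ cells, 16.9 and 28.6 CPM in unstimulated KLF2+ cells, 32.3 and 15.7 CPM in stimulated KLF2- cells, and 31.4 and 37.5 CPM in unstimulated KLF2- cells. It rose in KLF2+ cells by 1.75 ± 0.35 (log2, SE, edgeR adjusted p = 0.00657), and lost the call without unstimulated KLF2+ replicate 1. Slc25a11, which exchanges oxoglutarate for malate, had 275 and 286 CPM in stimulated KLF2+ cells, 150 and 195 CPM in unstimulated KLF2+ cells, 116 and 93.2 CPM in stimulated KLF2- cells, and 139 and 145 CPM in unstimulated KLF2- cells. Its 0.70 ± 0.21 (log2, SE, edgeR adjusted p = 0.0296) shrank to 0.21 with TMM over genes of at least 50 CPM and was then not called.

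Carriers of cofactors, vitamins and nucleotides counted 4 higher and 1 lower of 9 tested in the KLF2+ response. Of all genes tested, 19.7% were higher and 17.4% lower. Slc25a17, a carrier of coenzyme A and related nucleotides in peroxisomes, had 157 and 168 CPM in stimulated KLF2+ cells, 62.8 and 104 CPM in unstimulated KLF2+ cells, 48.1 and 38.8 CPM in stimulated KLF2- cells, and 49.0 and 51.6 CPM in unstimulated KLF2- cells. The stimulated KLF2+ libraries were highest and the unstimulated KLF2+ libraries next, with a log2 fold change of 0.96 ± 0.25 for Slc25a17 in KLF2+ cells (SE, edgeR adjusted p = 0.0174), not called once background was subtracted. Slc25a51, the mitochondrial NAD carrier, had 81.3 and 78.8 CPM in stimulated KLF2+ cells, 36.5 and 53.7 CPM in unstimulated KLF2+ cells, 41.2 and 27.4 CPM in stimulated KLF2- cells, and 33.2 and 37.3 CPM in unstimulated KLF2- cells. Its 0.82 ± 0.25 and the 0.67 ± 0.22 of Slc25a16, a carrier linked to coenzyme A import, passed with edgeR adjusted p = 0.0317 and 0.037, but neither passed under the other scalings.

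Slc25a32, the folate carrier, had 82.9 and 79.8 CPM in stimulated KLF2+ cells, 67.8 and 75.0 CPM in unstimulated KLF2+ cells, 46.8 and 57.1 CPM in stimulated KLF2- cells, and 44.2 and 41.4 CPM in unstimulated KLF2- cells. It was not called in either response, at 0.19 ± 0.18 in KLF2+ cells and 0.28 ± 0.19 in KLF2- cells (log2, SE). The pyrimidine nucleotide carriers Slc25a33 and Slc25a36 are described together under the unstimulated comparison.

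None of the 7 tested amino acid carriers was called in the KLF2+ response by edgeR, and 1 had an unadjusted p under 0.05, as had 51.9% of all genes. Slc25a22, a glutamate carrier, had 63.9 and 66.2 CPM in stimulated KLF2+ cells, 40.1 and 46.1 CPM in unstimulated KLF2+ cells, 33.1 and 23.5 CPM in stimulated KLF2- cells, and 35.2 and 33.7 CPM in unstimulated KLF2- cells. Slc25a38, a glycine carrier of heme synthesis, had 56.1 and 55.8 CPM in stimulated KLF2+ cells, 31.97 and 46.4 CPM in unstimulated KLF2+ cells, 30.2 and 26.4 CPM in stimulated KLF2- cells, and 36.5 and 29.4 CPM in unstimulated KLF2- cells. Their KLF2+ log2 fold changes, 0.59 ± 0.21 for Slc25a22 and 0.51 ± 0.23 for Slc25a38, had edgeR adjusted p = 0.0521 and 0.101. Slc25a15, an ornithine carrier, had 34.9 and 32.8 CPM in stimulated KLF2+ cells, 26.8 and 18.7 CPM in unstimulated KLF2+ cells, 16.2 and 10.02 CPM in stimulated KLF2- cells, and 17.7 and 17.5 CPM in unstimulated KLF2- cells. Slc25a44, a carrier of branched-chain amino acids, had 47.3 and 45.6 CPM in stimulated KLF2+ cells, 40.98 and 40.6 CPM in unstimulated KLF2+ cells, 22.1 and 23.96 CPM in stimulated KLF2- cells, and 30.7 and 35.8 CPM in unstimulated KLF2- cells. After stimulus these 4 carriers had higher CPM in both KLF2+ than in both KLF2- libraries, but on log2(TPM + 1) the mean difference turned negative for each of them.

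Of the 4 iron and glutathione carriers 1 rose in KLF2+ cells, beside 19.7% of all genes tested. Slc25a39 had 189 and 201 CPM in stimulated KLF2+ cells, 69.6 and 105 CPM in unstimulated KLF2+ cells, 64.3 and 33.3 CPM in stimulated KLF2- cells, and 73.0 and 74.1 CPM in unstimulated KLF2- cells. Its log2 fold change in KLF2+ cells was 1.16 ± 0.30 (SE, edgeR adjusted p = 0.0183), a call lost without stimulated KLF2+ replicate 2, without unstimulated KLF2+ replicate 1 and on TPM values. The mitoferrins, which import iron, were low. Slc25a37 had 19.3 and 14.2 CPM in stimulated KLF2+ cells, 13.1 and 12.5 CPM in unstimulated KLF2+ cells, 13.4 and 14.2 CPM in stimulated KLF2- cells, and 16.3 and 14.1 CPM in unstimulated KLF2- cells. Slc25a28 had 16.9 and 21.3 CPM in stimulated KLF2+ cells, 18.9 and 22.3 CPM in unstimulated KLF2+ cells, 14.8 and 16.99 CPM in stimulated KLF2- cells, and 18.1 and 21.5 CPM in unstimulated KLF2- cells. The ranges of stimulated and unstimulated Slc25a28 overlapped in KLF2+ cells, and neither mitoferrin was called in the KLF2+ response (log2 0.39 ± 0.30 for Slc25a37 and -0.11 ± 0.27 for Slc25a28, SE).

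Slc25a20, the carnitine-acylcarnitine carrier of fatty acid oxidation, had 78.1 and 75.5 CPM in stimulated KLF2+ cells, 40.1 and 58.0 CPM in unstimulated KLF2+ cells, 38.1 and 23.96 CPM in stimulated KLF2- cells, and 49.3 and 47.8 CPM in unstimulated KLF2- cells. Its libraries moved apart in opposite directions in the populations, but neither response was called (log2 0.64 ± 0.25 in KLF2+ cells and -0.64 ± 0.26 in KLF2- cells, SE). Slc25a46, an outer-membrane member linked to mitochondrial shape, had 175 and 179 CPM in stimulated KLF2+ cells, 108 and 131 CPM in unstimulated KLF2+ cells, 76.8 and 71.9 CPM in stimulated KLF2- cells, and 97.6 and 94.8 CPM in unstimulated KLF2- cells. Its KLF2+ value of 0.56 ± 0.18 (log2, SE, edgeR adjusted p = 0.0387) was called in 4 of 16 alternatives, and on log2(TPM + 1) it was -0.11.

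Of the 43 members 3 were lower in stimulated than in unstimulated KLF2+ cells, beside 17.4% of all genes tested. Slc25a27, known as UCP4 and best studied in brain, had 6.42 and 2.44 CPM in stimulated KLF2+ cells, 20.7 and 11.3 CPM in unstimulated KLF2+ cells, 19.8 and 45.1 CPM in stimulated KLF2- cells, and 23.0 and 23.1 CPM in unstimulated KLF2- cells. Its log2 fold change in KLF2+ cells was -1.87 ± 0.54 (SE, edgeR adjusted p = 0.0256), lost without stimulated KLF2+ replicate 2, without unstimulated KLF2+ replicate 1 and on log2(TPM + 1). Expected background made up 27.5% to 45.0% of its reads, and with it subtracted the value was -2.43 and still called. Slc25a45, a member of less settled substrate that was singled out after its values were seen, had 60.1 and 61.6 CPM in stimulated KLF2+ cells, 81.2 and 107 CPM in unstimulated KLF2+ cells, 42.9 and 49.9 CPM in stimulated KLF2- cells, and 57.9 and 72.1 CPM in unstimulated KLF2- cells. Its value was -0.63 ± 0.21 in KLF2+ cells (log2, SE, edgeR adjusted p = 0.0415), a call lost without either stimulated KLF2+ library, without unstimulated KLF2+ replicate 2, without either unstimulated KLF2- library, with DESeq2, with RLE factors and with no filter on low counts. Slc25a33 was the third and had an edgeR adjusted p = 0.034.

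In KLF2- cells no member was called between stimulated and unstimulated cells. By edgeR 0 of 43 members and 0% of all genes tested passed, 5 members had an unadjusted p under 0.05 against 14.6% of all genes, and DESeq2 called 0 members and 74 genes. The members' median log2 fold change was -0.27 (all genes 0.06), and it was 0.13 with TMM over genes of at least 50 CPM and -0.01 with background subtracted. The groups did not overlap for 7 members that were higher and 23 that were lower with stimulus, against 31.2% and 30.2% of all genes. The stimulated KLF2- libraries lay far apart for Slc25a5, at 412 CPM in replicate 3 and 140 CPM in replicate 4, and close together for Slc25a13, at 22.8 and 23.3 CPM. Mki67, a marker of cycling cells, also differed between them, with 73.4 CPM in replicate 3 and 25.7 CPM in replicate 4, and its part in the Slc25a5 values was not tested.

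After stimulus, 24 members were higher and 7 lower in KLF2+ than in KLF2- cells, with 75.2% of all genes called, 35.5% higher and 39.7% lower. This upward lean depended on the scaling. TMM over genes of at least 50 CPM gave 7 higher and 16 lower members, with 2280 genes higher and 11169 lower of 19146. Background-corrected counts gave 7 higher and 8 lower, with 2441 genes higher and 5897 lower of 15292. All 8 measured CD4 T cell genes were higher in this comparison too, summing to 7023 and 7468 CPM in stimulated KLF2+ cells, against 2599 and 2436 CPM in stimulated KLF2- cells, and their part in the carrier values was not tested. The members' median log2 fold change was 0.89, -0.31 and -0.08 under the 3 scalings, in each case above the medians of all genes given earlier. Those medians were not matched to the members for level, and the part of level and background in this gap was not tested. Higher under all 3 were Slc25a1, Slc25a3, Slc25a4, Slc25a5, Slc25a12, Slc25a17 and Slc25a39, and lower under all 3 were Slc25a27, Slc25a43 and Slc25a54.

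Slc25a5 had 2010 and 1961 CPM in stimulated KLF2+ cells, against 412 and 140 CPM in stimulated KLF2- cells, a log2 fold change of 2.84 ± 0.45 (SE, edgeR adjusted p = 0.000625). It was 1.72 and 1.61 under the other scalings, which is 3.03, 3.11 and 2.08 above the median of all genes. Slc25a3 had a log2 fold change of 2.23 ± 0.24 (SE, edgeR adjusted p = 0.000248), and 1.04 and 0.94 under the other scalings. Slc25a4 gave 2.40 ± 0.35 (edgeR adjusted p = 0.000455), and 1.25 and 1.17. These 3 carriers of ATP synthesis were the members that stood highest above the median of all genes with TMM over genes of at least 50 CPM. Slc25a12 gave 2.11 ± 0.31 (edgeR adjusted p = 0.000454), Slc25a39 gave 1.99 ± 0.31 (edgeR adjusted p = 0.000583), Slc25a17 gave 1.90 ± 0.26 (edgeR adjusted p = 0.000366) and Slc25a1 gave 1.80 ± 0.25 (edgeR adjusted p = 0.0004). On the other side, Slc25a27 had 6.42 and 2.44 CPM in stimulated KLF2+ cells, against 19.8 and 45.1 CPM in stimulated KLF2- cells, a log2 fold change of -2.89 ± 0.55 (SE, edgeR adjusted p = 0.00142).

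**Figure D4:**
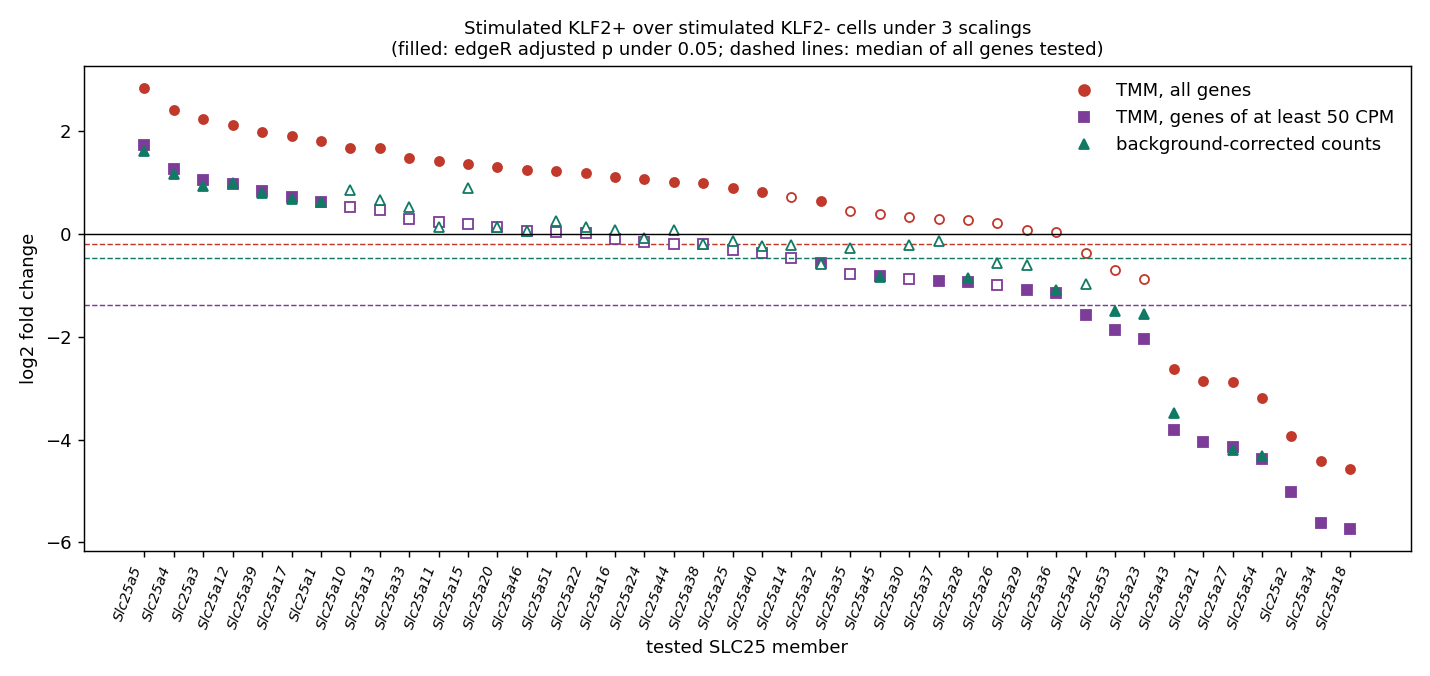
Log2 fold change of stimulated KLF2+ over stimulated KLF2- cells for 42 of the 43 tested members under 3 scalings, with the median of all genes as dashed lines at -0.19, -1.39 and -0.47. Filled symbols passed an adjusted p of 0.05 in edgeR, and 7 members on the left and Slc25a27, Slc25a43 and Slc25a54 on the right passed on 1 side under all 3.

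Several of the members that were lower after stimulus had few reads. Slc25a43 had at most 36.5 reads in any library and Slc25a54 at most 31.5, and expected background came to 14.2% to 73.9% of the reads of Slc25a43 and 40.8% to 72.8% of those of Slc25a54. For Slc25a2, Slc25a18, Slc25a21 and Slc25a34, known as carriers of basic amino acids, glutamate, oxodicarboxylates and an orphan substrate, the expected background came to at least 62.4% of the reads found in every library, with 26 reads at most. Their lower values in stimulated KLF2+ cells, -2.85 to -4.57 on the log2 scale, cannot be told apart from a difference in background, which was 0.401% and 1.24% of exon reads in stimulated KLF2+ libraries and 11.4% and 20.1% in stimulated KLF2- libraries. None of these 4 kept enough reads to be tested once background was subtracted. The untested ADP/ATP carrier of testis, Slc25a31, had 0.151 and 0.174 CPM in stimulated KLF2+ cells, 0.788 and 0.530 CPM in unstimulated KLF2+ cells, 0.330 and 0.871 CPM in stimulated KLF2- cells, and 0.349 and 0.406 CPM in unstimulated KLF2- cells, below the level that background alone would give.

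The responses of the populations were compared by the difference between them, KLF2+ minus KLF2-. Of 43 members 14 had a higher and 1 a lower response in KLF2+ than in KLF2- cells, while 35.8% of all genes were called, 20.3% higher and 15.5% lower. Slc25a4 differed by 2.49 ± 0.48, Slc25a3 by 1.77 ± 0.33 and Slc25a1 by 1.74 ± 0.35 (log2, SE, edgeR adjusted p = 0.0161, 0.0149 and 0.0168), and these 3 were called under all 3 scalings. TMM over genes of at least 50 CPM gave 5 higher and 7 lower members, with 1017 genes higher and 5102 lower of 19146. Background correction gave 4 higher and 1 lower, with 547 genes higher and 1260 lower of 15292. The 15 calls became 0 without unstimulated KLF2- replicate 3 or replicate 4, where 0.366% and 0.346% of all genes were called. They became 2 without unstimulated KLF2+ replicate 1 (2.04% of all genes), 5 without stimulated KLF2+ replicate 2 (8.88%) and 9 without stimulated KLF2- replicate 4 (12.9%), so calls were lost across all genes.

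Without stimulus Slc25a33, an importer of pyrimidine nucleotides into mitochondria, was the 1 member called between the populations. Between unstimulated KLF2+ and KLF2- cells 1 of 43 members was called by edgeR, which is the share of all genes, 2.32%, and says nothing of the family as a whole. By edgeR 7 members had an unadjusted p under 0.05 against 19.2% of all genes, and DESeq2 called 3 members and 1148 genes. The groups did not overlap for 15 members that were higher and 12 that were lower in KLF2+ cells, against 26.2% and 32.8% of all genes. Slc25a33 had 47.3 and 74.5 CPM in unstimulated KLF2+ cells, against 13.9 and 14.8 CPM in unstimulated KLF2- cells, and 32.6 and 37.6 CPM in stimulated KLF2+ cells, against 12.03 and 13.1 CPM in stimulated KLF2- cells. All 4 KLF2+ libraries lay above all 4 KLF2- libraries. The log2 fold change of KLF2+ over KLF2- cells was 2.08 ± 0.26 without stimulus (SE, edgeR adjusted p = 0.00483), and 1.75 and 1.87 under the other scalings, both called. After stimulus it was 1.49 ± 0.27 (SE, edgeR adjusted p = 0.00106), but 0.28 and 0.53 under the other scalings, neither called. Within KLF2+ cells it was lower with stimulus, at -0.80 ± 0.25 (log2, SE, edgeR adjusted p = 0.034), a call lost without either stimulated KLF2+ library, without unstimulated KLF2+ replicate 2 and without either unstimulated KLF2- library. The unstimulated call was lost without unstimulated KLF2+ replicate 2, and without either unstimulated KLF2- library, with an adjusted p of at most 0.0834 in edgeR. Over all 15 alternatives the unstimulated log2 fold change of Slc25a33 was 1.59 to 2.44. The number of members called moved between fits, as did that of all genes. The 12 myeloid markers summed to 1305 and 2436 CPM in unstimulated KLF2+ cells, against 317 and 320 CPM in unstimulated KLF2- cells, and their part in the Slc25a33 difference was not tested.

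Its relative Slc25a36, which also carries pyrimidine nucleotides, did not share this pattern. Slc25a36 had 32.2 and 34.6 CPM in stimulated KLF2+ cells, 36.6 and 38.04 CPM in unstimulated KLF2+ cells, 31.7 and 33.1 CPM in stimulated KLF2- cells, and 34.6 and 33.6 CPM in unstimulated KLF2- cells. These values lay within a narrow band in all 8 libraries under TMM over all genes, and the log2 fold change of unstimulated KLF2+ over KLF2- cells was 0.13 ± 0.19 (SE). Within each library Slc25a33 made up 63.2% ± 1.16 of the CPM per kb of the pair in stimulated KLF2+ cells, against 38.8% ± 0.629 in stimulated KLF2- cells, and 72.0% ± 5.89 in unstimulated KLF2+ cells, against 40.8% ± 1.56 in unstimulated KLF2- cells (SD, n = 2 each). This share needs no scaling but keeps background reads, and every KLF2+ library lay above every KLF2- library.

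**Figure D5:**
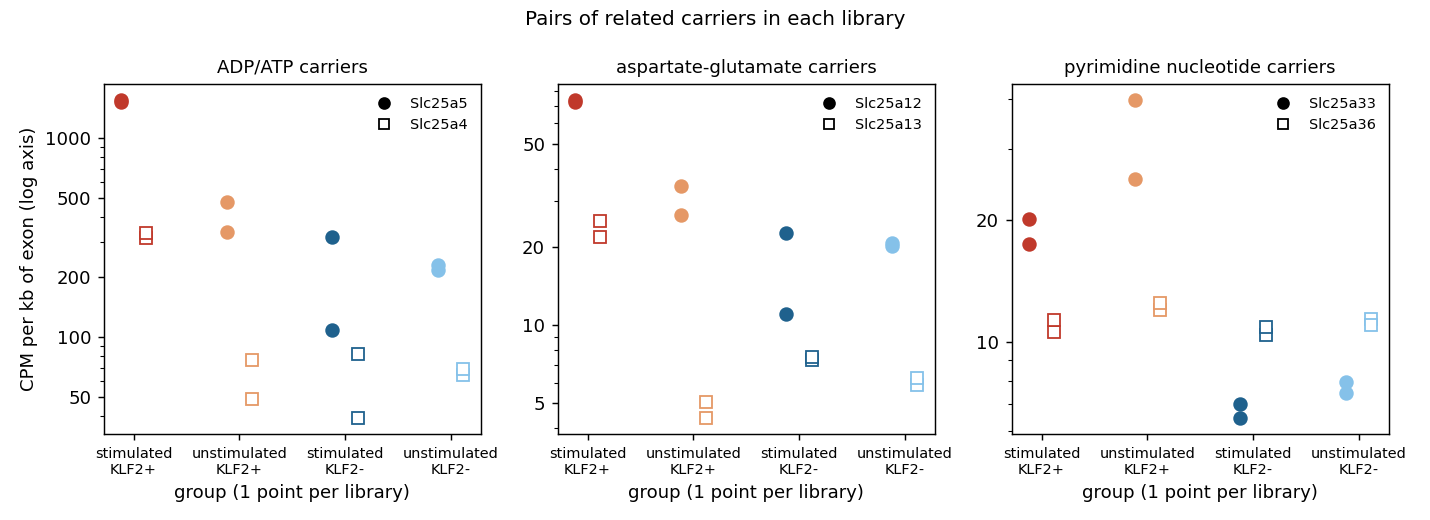
CPM per kb of exon on log axes for 3 pairs of related carriers, 1 point per library, with groups from left to right as stimulated KLF2+, unstimulated KLF2+, stimulated KLF2- and unstimulated KLF2-. Slc25a33 stands at 25.3 and 39.9 CPM per kb in unstimulated KLF2+ cells, against 7.47 and 7.93 in unstimulated KLF2- cells, while Slc25a36 stays between 10.4 and 12.5 in all libraries.

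In KLF2+ cells the shares of other close relatives also moved with stimulus, with 2 libraries a group and no test. Slc25a4 made up 17.3% ± 0.831 of the 3 ADP/ATP carriers' CPM per kb in stimulated KLF2+ cells, against 13.2% ± 0.862 in unstimulated KLF2+ cells, and 23.5% ± 4.10 in stimulated KLF2- cells, against 23.0% ± 1.74 in unstimulated KLF2- cells (SD, n = 2 each). Slc25a13 made up 24.3% ± 1.46 of the aspartate-glutamate carriers in stimulated KLF2+ cells, against 13.6% ± 3.27 in unstimulated KLF2+ cells, and 32.5% ± 11.4 in stimulated KLF2- cells, against 22.9% ± 1.07 in unstimulated KLF2- cells (SD, n = 2 each). The Slc25a13 share in stimulated KLF2- cells lay at 24.4% in replicate 3 and 40.6% in replicate 4. Background was expected to make up 1.15% and 0.430% of the Slc25a13 reads in stimulated KLF2+ cells, against 16.99% and 25.6% in those of stimulated KLF2- cells. Reads of close relatives can be split wrongly where their sequences match. The coding sequences of Slc25a4 and Slc25a5 were 77.4% identical in GENCODE M21, but the longest run they shared was 20 bases, cagttctggcgctactttgc, and that of Slc25a12 and Slc25a13, 70.3% identical, was 21 bases, ttctttggactgtaccgaggt. The treatment of reads that match several genes, and of strand, is not given in the sources used here.

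Genes that work with the carriers moved in the same comparison. Of 50 genes listed from neighbouring routes, 32 were higher and 3 lower in stimulated than in unstimulated KLF2+ cells. Of all genes tested, 19.7% were higher and 17.4% lower. TMM over genes of at least 50 CPM gave 22 higher and 5 lower, with 2167 genes higher and 5667 lower of 19146. Background correction gave 21 higher and 2 lower, with 1937 genes higher and 2510 lower of 15292. The 3 outer-membrane channels of the VDAC family rose, with 2 of 3 called after background correction, and 10 of 12 genes of the import route that inserts carriers in the membrane did, with 6 of 12 called under each of the other scalings. Of 8 enzymes of the malate-aspartate shuttle and of exported metabolites 6 rose, also 6 under each of the other scalings. Of 5 calcium uniporter genes 3 rose, with 1 called under each of the other scalings, and of 5 heme and iron-sulfur enzymes 2 rose, with 0 under either. Of 7 other inner-membrane carriers 3 were higher and 2 lower, against 1 higher and 2 lower under each of the other scalings. Of 5 mitochondrial folate enzymes 3 rose, also 3 under each of the other scalings, with 1 lower under TMM over genes of at least 50 CPM. Got2, the mitochondrial aspartate aminotransferase that works with Slc25a12 and Slc25a13, had 521 and 564 CPM in stimulated KLF2+ cells, against 137 and 169 CPM in unstimulated KLF2+ cells (log2 1.83 ± 0.22, SE, edgeR adjusted p = 0.000918). Got1, its cytosolic partner, had 216 and 214 CPM in stimulated KLF2+ cells, against 58.5 and 71.0 CPM in unstimulated KLF2+ cells (log2 1.73 ± 0.24, SE, edgeR adjusted p = 0.00166). Mthfd2, a mitochondrial folate enzyme, had 277 and 310 CPM in stimulated KLF2+ cells, against 69.7 and 79.1 CPM in unstimulated KLF2+ cells (log2 1.98 ± 0.25, SE, edgeR adjusted p = 0.00109), whereas the folate carrier Slc25a32 was not called.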

How the data were processed

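RNA from 8 libraries, 2 per group, was measured by sequencing. The authors deposited estimated counts per gene, summed over exons of condensed genes on mm10 with HOMER and no depth adjustment, per the file headers. The values came in steps of 0.5. The authors also deposited TPM values for the same libraries, made with HOMER per the file headers. STAR 2.7.9, HOMER 4.11, SAMtools and DESeq2 are named in the submitters' processing notes; how reads were filtered and whether strand was used is not given in the sources used here.

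Estimated counts were first made whole by rounding, filtered with filterByExpr by group, scaled by TMM and fitted over all 8 libraries with edgeR 4.0.16 (quasi-likelihood F test, R 4.3.3), with p-values adjusted by Benjamini-Hochberg over all genes tested and a threshold of 0.05. All groups shared 1 estimate of spread. The 5 comparisons were the stimulus response in KLF2+ and in KLF2- cells, KLF2+ against KLF2- cells with and without stimulus, and the difference of the responses. Alternatives were DESeq2 1.42.0, RLE factors, TMM from genes of at least 50 CPM, no filter on low counts, counts less a background taken from 1464 receptor genes, limma 3.58.1 on log2(TPM + 1) and log2(TPM + 0.1), the replicate number as a block, and leaving out each library. The fit was tested on simulated data. Sequences were read with Python 3.11.15 and Biopython 1.88, and figures drawn with matplotlib 3.10.9.

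Values in every library are given for members among the 12 smallest p of a comparison that called them and for a fixed list of members of known substrate. Genes outside the family were named from a list of neighbouring routes, up to 6 by smallest p. The values of 1 member, which stays in the counts, are not reported here. The members and lists were chosen with earlier results of these data known. Exon reads ranged from 2.99 M to 36.6 M per library, so low members are least precise in the stimulated KLF2- libraries.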

Additional observations from a re-analysis of the deposited data

Results flagged for a closer look

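The response to stimulus differed between KLF2+ and KLF2- cells for 15 of 43 members, by the test of that difference in edgeR. This share was near that of all genes tested, of which 35.8% were called. The values of 14 of these members are given here, and most of the calls depended on the scaling. On the log2 scale, KLF2+ minus KLF2-, the difference was 2.49 for Slc25a4, 1.98 for Slc25a5 and 1.77 for Slc25a3, the carriers of ADP, ATP and phosphate. Among carboxylate and aspartate-glutamate carriers it was 2.26 for Slc25a10, 2.03 for Slc25a13, 1.74 for Slc25a1, 1.53 for Slc25a12 and 1.14 for Slc25a11. It was 1.17 for Slc25a17 and 0.94 for Slc25a16 among cofactor carriers, 1.74 for Slc25a39, 1.28 for Slc25a20 and 0.93 for Slc25a46. Slc25a27 was the 1 member with a lower response in KLF2+ cells, at -2.35. Of these, Slc25a1, Slc25a3 and Slc25a4 were called under all 3 scalings.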

How the results depend on the processing

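Counts of members called moved by more than 1.5 times in these cases. DESeq2 called 3 members between unstimulated KLF2+ and KLF2- cells, where edgeR called 1, with 6% and 2.32% of all genes. Background-corrected counts gave 15 calls of 39 members between stimulated KLF2+ and KLF2- cells, where the main fit called 31 of 43. The shares of all genes were 54.5% and 75.2%. In the difference between the responses they gave 5 of 39, where the main fit called 15 of 43, with 11.8% and 35.8% of all genes. Limma on log2(TPM + 1) gave 7 of 45 in that difference, with 18.4% of all genes. In the fits with 1 library left out, the share of all genes called did not always move with the members' count. Such fits leave 1 library in a group, so nothing about the carriers is concluded from these swings. Leaving out 1 library at a time gave 5 to 19 calls in the KLF2+ response, 0 to 5 between unstimulated cells, 0 to 20 in the difference between responses, 29 to 33 between stimulated cells and 0 in the KLF2- response.

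Of the sign changes of named members, 46 were of values called under at least 1 of the settings compared, 42 of them in stimulated KLF2+ over KLF2- cells, and the cause was not tested. Another 171, mostly in the other comparisons, were of values called under neither. With TMM from genes of at least 50 CPM the log2 fold change was -0.16 for Slc25a24, -0.31 for Slc25a25, -0.94 for Slc25a28, -0.56 for Slc25a32, -1.16 for Slc25a36, -0.92 for Slc25a37, -0.20 for Slc25a38 and -0.19 for Slc25a44. With background-corrected counts it was -0.077 for Slc25a24, -0.13 for Slc25a25, -0.86 for Slc25a28, -0.58 for Slc25a32, -1.09 for Slc25a36 and -0.19 for Slc25a38. On log2(TPM + 1), and then on log2(TPM + 0.1), it was -0.010 and -0.010 for Slc25a11, -0.034 and -0.038 for Slc25a15, -0.091 and -0.094 for Slc25a20, -0.21 and -0.22 for Slc25a22, -0.34 and -0.36 for Slc25a24, and -0.51 and -0.55 for Slc25a25. On those scales it was -1.09 and -1.17 for Slc25a28, -0.75 and -0.78 for Slc25a32, -1.28 and -1.38 for Slc25a36, -0.92 and -1.14 for Slc25a37, -0.43 and -0.45 for Slc25a38, -0.38 and -0.42 for Slc25a44, -0.18 and -0.19 for Slc25a46, and -0.18 and -0.19 for Slc25a51. Slc25a46 also turned to -0.11 and -0.11 in the KLF2+ response and to -0.13 and -0.13 in the difference between responses.

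With the replicate number as a block, 22 members were called in the KLF2+ response (56.7% of all genes), 0 in the KLF2- response (4.02%, 770 genes) and 20 in the difference (56.7%). The correlation over genes of the deviations of same-numbered libraries was 0.54 in KLF2+ and 0.087 in KLF2- cells, and 0.58 and 0.42 over genes of at least 50 CPM. The labels state no pairing and each population has 2 numbers only, so the numbers were not taken as pairs.

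Depth limits the stimulated KLF2- libraries most, with 2.99 M exon reads in replicate 4. With 2 libraries a group the spread is poorly known, and the stimulated comparison has no scaling that the data alone single out.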

Other observations

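Relatives of the carriers with other symbols also varied. Mtch1, an outer-membrane relative, had 289 and 246 CPM in stimulated KLF2+ cells, against 84.2 and 112 CPM in unstimulated KLF2+ cells, a log2 fold change of 1.45 ± 0.24 (SE, edgeR adjusted p = 0.0032). Mtch2, its paralog, rose by 1.19 ± 0.27 (log2, SE, edgeR adjusted p = 0.0115), and both were called under all 3 scalings. Ucp3, an uncoupling protein best known from muscle, had 1.13 and 1.06 CPM in unstimulated KLF2+ cells, against 12.1 and 7.41 CPM in unstimulated KLF2- cells (log2 -3.15 ± 0.55, SE, edgeR adjusted p = 0.0186).

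Sideroflexins, another family of inner-membrane carriers, split in the KLF2+ response. Sfxn1, a mitochondrial serine carrier, had 298 and 289 CPM in stimulated KLF2+ cells, against 84.7 and 101 CPM in unstimulated KLF2+ cells (log2 1.66 ± 0.23, SE, edgeR adjusted p = 0.00165). Sfxn3 had 64.9 and 86.7 CPM in stimulated KLF2+ cells, against 149 and 237 CPM in unstimulated KLF2+ cells (log2 -1.35 ± 0.26, SE, edgeR adjusted p = 0.00652). Alas1, the first enzyme of heme synthesis, had 71.03 and 87.5 CPM in unstimulated KLF2+ cells, against 29.3 and 34.7 CPM in unstimulated KLF2- cells (log2 1.31 ± 0.21, SE, edgeR adjusted p = 0.0132). These genes beyond the family were chosen after their values were seen.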
